A study of Rattus norvegicus with 36 samples.

Results

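Mmgt1, Cndp2, Stbd1 and Prnp are 4 genes of rat liver that stand outside the classic drug-metabolizing enzymes and were chosen by their measured rise over vehicle at 0.959 to 959 mg/kg of decabromodiphenyl ether (decaBDE), a brominated flame retardant. They were found as the probe sets that the array's annotation assigns to 1 of these symbols alone, which gave 5 of the 31042 probe sets tested and 4 of 14217 genes. Their NCBI gene IDs are 302864 (Mmgt1), 291394 (Cndp2), 305234 (Stbd1) and 24686 (Prnp). Mmgt1 has 2 probe sets, and its brighter one stands for it unless the dimmer one is named, while the other genes have 1 each.

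Male Harlan Sprague Dawley rats, 7 weeks old at the start, were gavaged with corn oil (vehicle) or with decaBDE in it on 5 days running, at a lowest dose of 0.1 mg/kg, then 0.959 mg/kg and 9.59 mg/kg, and at the top 95.9 mg/kg and 959 mg/kg. RNA came from the left lobe of the liver, collected 1 day after dosing ended. Each of the 6 groups had 6 arrays, 36 in all, from whole liver tissue. The labels do not say outright that each array was a rat of its own, so p-values measure the spread between arrays, which may be in part technical.

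Mmgt1 encodes a small membrane protein known both as a membrane magnesium transporter and as a subunit of the endoplasmic reticulum membrane protein complex (EMC), which helps insert proteins into that membrane. Cndp2 encodes the cytosolic nonspecific dipeptidase, which splits dipeptides such as cysteinylglycine, a product of glutathione breakdown, and joins lactate to amino acids. Stbd1 encodes a membrane-anchored protein that binds glycogen through a starch-binding domain and can link it to the autophagy machinery. Prnp encodes the cellular prion protein, a copper-binding glycoprotein on the outer cell surface that is made in many cell types.

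Values are log2 RMA signals, so a difference of 1 is a doubling. Over all probe sets the median of an array was between 5.12 and 5.21. Any pair of arrays had a Pearson's r of 0.988 to 0.996 across probe sets, which do not count as independent replicates. Replicate 6 of the 0.1 mg/kg group lay farthest out on the first principal component (9.94% of the variance) and had the lowest estimated array weight, 0.517. The 5 measured hepatocyte markers, such as albumin, had a mean log2 level of 14.3 in every group, which fits the labelled tissue. The mean difference between the 3' and 5' probe sets of actin, a sign of RNA quality, ran from 1.14 to 1.24 over the groups.

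The stretch of 250 bases upstream of the annotated start is shown for the 3 genes that matched an entry in the promoter table, since induction by chemicals can run through short motifs, there or farther off. Sequences are from RefSeq, build GRCr8, in the direction of the gene, with motif matches in capitals. Cndp2 lies at chr18:80331901-80332150 on the minus strand, Stbd1 at chr14:15758175-15758424 on the minus strand and Prnp at chr3:139638826-139639075 on the plus strand.
Cndp2: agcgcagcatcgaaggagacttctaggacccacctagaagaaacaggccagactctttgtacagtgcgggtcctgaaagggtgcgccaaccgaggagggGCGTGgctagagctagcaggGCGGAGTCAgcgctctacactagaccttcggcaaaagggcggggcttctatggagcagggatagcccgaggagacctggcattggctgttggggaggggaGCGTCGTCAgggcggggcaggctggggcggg
Stbd1: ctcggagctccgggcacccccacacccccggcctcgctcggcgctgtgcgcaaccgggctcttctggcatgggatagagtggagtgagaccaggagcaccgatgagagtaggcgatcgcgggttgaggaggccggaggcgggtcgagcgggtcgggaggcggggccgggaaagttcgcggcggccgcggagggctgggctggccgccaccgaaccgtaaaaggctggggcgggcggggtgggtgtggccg
Prnp: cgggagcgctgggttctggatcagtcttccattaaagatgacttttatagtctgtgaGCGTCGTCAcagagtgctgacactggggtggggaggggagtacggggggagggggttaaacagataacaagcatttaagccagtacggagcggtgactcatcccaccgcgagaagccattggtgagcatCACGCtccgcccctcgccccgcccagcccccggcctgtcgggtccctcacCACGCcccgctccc
Mmgt1 is named only.

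Motifs were searched on both strands from 250 bases before to 50 after the start. The antioxidant response element core, TGACNNNGC, through which the factor NRF2 acts, was found at 2 places in Cndp2 (-131 and -31 from the start) and at 2 in Prnp (-193 and 3), all on the opposite strand. It was not found in the Stbd1 window. Of all 27457 promoter windows of this length, 12.2% held at least 1 match and 0.918% held 2 or more. The core bound by the Ah receptor, GCGTG, stood at -151 and 35 in Cndp2 and, on the opposite strand, at -64 and -14 in Prnp, and was not found in Stbd1. At least 1 such match was in 31.1% of windows and 2 or more in 10.8%. The nuclear receptor half-sites AGTTCA (14.4% of windows) and AGGTCA (15.7%), and their direct repeat with 4 bases between (0.0583%), were not found in the 3 windows. No 2 of these motifs overlap in the printed stretches. The windows were rich in G and C, at 63.0% for Cndp2, 71.7% for Stbd1 and 62.7% for Prnp, against a median of 52.3%. They held 17, 34 and 24 CpG pairs, against a median of 7. These matches describe letters, not bound sites. Motifs outside the windows were not searched, so a motif not found here may still lie elsewhere near the gene.

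Mmgt1 was high at every dose from 0.959 mg/kg on. Its log2 level in the 6 vehicle arrays had a lowest value of 9.62, a median of 9.67 and a highest of 10.03, and 5 of the 6 lay at or below 9.75. At 0.959 mg/kg the lowest was 10.06, the median 10.29 and the highest 10.38. At 9.59 mg/kg they were 10.16, 10.28 and 10.53, at 95.9 mg/kg 10.17, 10.37 and 10.52, and at 959 mg/kg 10.28, 10.39 and 10.55. All 6 arrays of each of these groups therefore lay above the highest vehicle array. The 0.1 mg/kg arrays ran from 9.79 to 9.97, inside the vehicle range but above 5 of its 6 arrays.

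The mean level of Mmgt1 exceeded vehicle by 0.54 at 0.959 mg/kg, 0.59 at 9.59 mg/kg, 0.63 at 95.9 mg/kg and 0.66 at 959 mg/kg, each with an SE of 0.0737. The last is a 1.58-fold level (95% interval 1.42 to 1.75). These differences served to pick the gene and are given with no test. The same holds for the other genes below, so the intervals at these doses are no test either. The second probe set of Mmgt1 was dimmer by 1.13 on average and differed from vehicle by 0.54, 0.68, 0.66 and 0.67 at the same 4 doses (SE 0.0938). Both probe sets moved together over the 36 arrays (Pearson's r 0.944) and also as deviations from their dose group means (r 0.786, n = 36). They differed at 0.959 mg/kg, where the dimmer one had 5 of 6 arrays above every vehicle array.

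**Figure D1:**
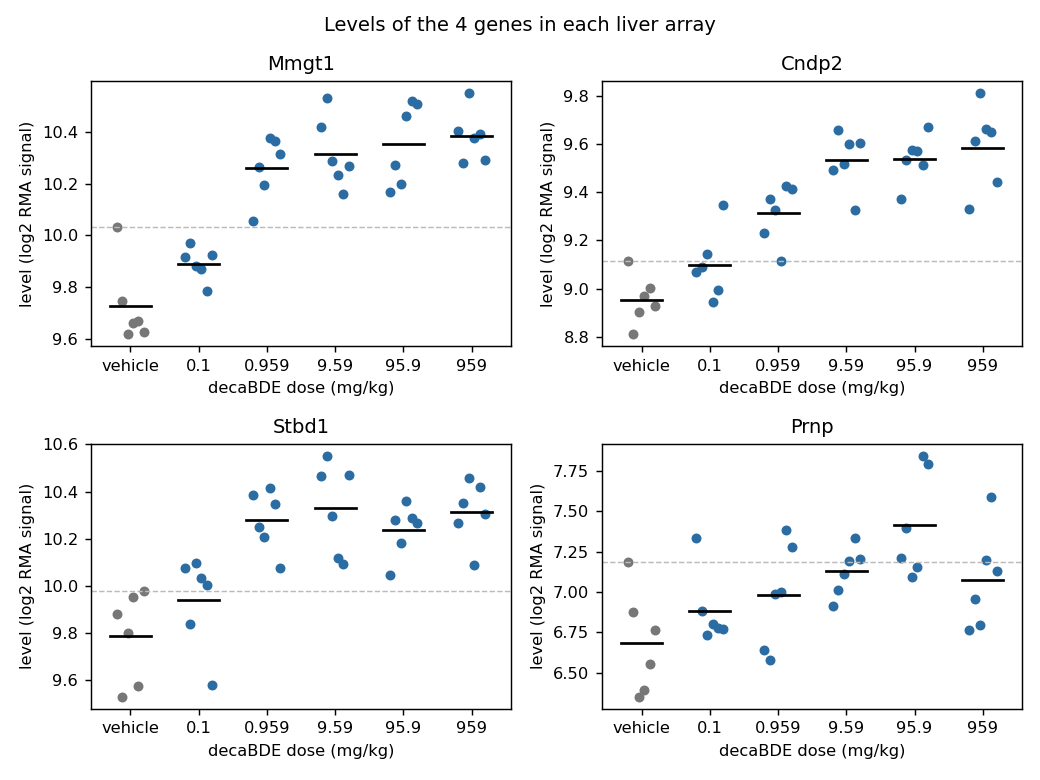
Log2 RMA level of the 4 genes in each of 36 liver arrays, by decaBDE dose in mg/kg (equally spaced positions), with points for arrays, black bars for group means and a dashed line at the highest vehicle array. Mmgt1 and Stbd1 lie wholly above that line from 0.959 mg/kg on and Cndp2 from 9.59 mg/kg on, while Prnp overlaps with it at every dose.

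Cndp2, like the brighter probe set of Mmgt1, had its group means in the order of the doses. Its means at 9.59 and 95.9 mg/kg differed by only 0.006. Its vehicle arrays had a lowest log2 level of 8.81, a median of 8.95 and a highest of 9.12. At 0.959 mg/kg these were 9.11, 9.35 and 9.42, with 5 arrays of 6 higher than any vehicle array. At 9.59 mg/kg the 3 values were 9.32, 9.56 and 9.66, at 95.9 mg/kg 9.37, 9.55 and 9.67, and at 959 mg/kg 9.33, 9.63 and 9.81. None of the 18 arrays of the 3 highest doses overlapped with vehicle. The mean difference from vehicle was 0.36 at 0.959 mg/kg and then 0.58, 0.58 and 0.63 (SE 0.0741), the last a 1.55-fold level (95% interval 1.39 to 1.72).

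Stbd1 was near its highest level already at 0.959 mg/kg. Vehicle arrays of Stbd1 had a lowest log2 level of 9.53, a median of 9.84 and a highest of 9.98. At 0.959 mg/kg the lowest was 10.08, the median 10.30 and the highest 10.42. At 9.59 mg/kg they were 10.09, 10.38 and 10.55, at 95.9 mg/kg 10.04, 10.27 and 10.36, and at 959 mg/kg 10.09, 10.33 and 10.46. All 24 of these arrays lay above every vehicle array, though the lowest of each group came close to it. The mean differences were 0.50, 0.55, 0.45 and 0.53 (SE 0.092), and the 959 mg/kg level was 1.44-fold that of vehicle (95% interval 1.27 to 1.64).

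Prnp had the loosest pattern of the 4 genes and was highest at 95.9 mg/kg. Its vehicle arrays had a lowest log2 level of 6.35, a median of 6.66 and a highest of 7.18. The lowest, median and highest were 6.58, 7.00 and 7.39 at 0.959 mg/kg, 6.91, 7.15 and 7.34 at 9.59 mg/kg, 7.09, 7.30 and 7.85 at 95.9 mg/kg and 6.77, 7.05 and 7.59 at 959 mg/kg. In these 4 groups 2, 3, 4 and 2 of 6 arrays exceeded the highest vehicle array, so each group overlapped with vehicle. The mean differences from vehicle were 0.29, 0.44, 0.73 and 0.39 (SE 0.154). At 95.9 mg/kg the level was 1.66-fold that of vehicle (95% interval 1.33 to 2.06). It was 1.31-fold at 959 mg/kg (1.05 to 1.62) and 1.22-fold at 0.959 mg/kg (0.985 to 1.52), where the interval includes no change.

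The number of the 4 genes whose 6 arrays all lay above every vehicle array was 0 at 0.1 mg/kg, 2 at 0.959 mg/kg and 3 at each of 9.59, 95.9 and 959 mg/kg. Over all probe sets tested, 0.0741%, 0.267%, 0.435%, 0.332% and 0.283% met the same condition at these doses. limma at an adjusted p under 0.05 called 0% of probe sets at 0.1 mg/kg, 0.029% at 0.959 mg/kg, 0.116% at 9.59 mg/kg, 0.0902% at 95.9 mg/kg and 0.11% at 959 mg/kg against vehicle. Nothing is read from the members' counts at the 4 upper doses, since the genes were picked there.

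The shape of the dose response differed in the values, as shares of the mean difference at 959 mg/kg. At 0.959 mg/kg Stbd1 had 93.5% of it, Mmgt1 81.6%, Prnp 75.4% and Cndp2 56.9%. By 9.59 mg/kg the shares were 103%, 89.9%, 114% and 91.7%, so none of the genes was far below its level at the highest dose. At 95.9 mg/kg Prnp had 188%, while the other genes had 85.3% (Stbd1), 92.7% (Cndp2) and 95.8% (Mmgt1). Cyp3a23-3a1, a cytochrome P450 gene induced through the receptor PXR, had 64.6%, 90.2% and 92.9% at these 3 doses. Cyp1a1, the classic target of the Ah receptor, had -0.231%, 0.0507% and 34.6%. At 0.1 mg/kg, where none of the 4 genes passed, the shares were 25.1% for Mmgt1, 22.7% for Cndp2, 28.8% for Stbd1 and 50.5% for Prnp. They were 3.63% for Cyp3a23-3a1 and 1.65% for Cyp1a1, but 36.7% for Abcc3, an efflux pump gene. All these shares use the same vehicle arrays and are given with no error. The shares of Prnp divide by a difference of 0.39 (SE 0.154), which was 0.28 without 959 mg/kg replicate 5.

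**Figure D2:**
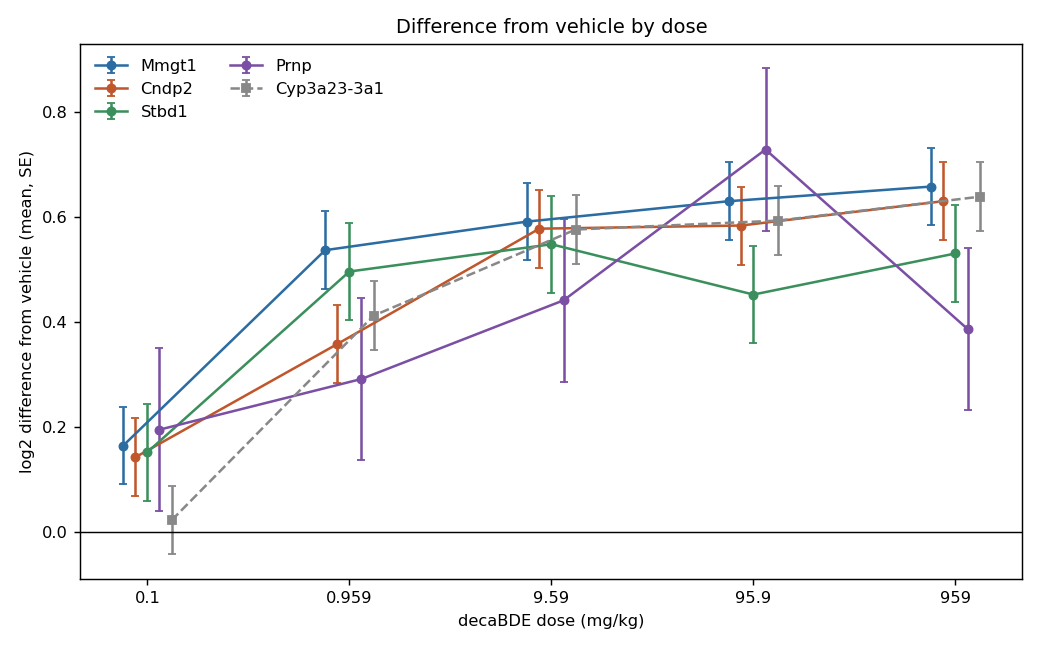
Mean log2 difference from vehicle (bars are the SE of the fit) by decaBDE dose in mg/kg at equally spaced positions, for the 4 genes and, dashed, Cyp3a23-3a1. Mmgt1, Cndp2 and Stbd1 lie between 0.45 and 0.66 at the 3 highest doses, and Prnp reaches 0.73 at 95.9 mg/kg and 0.39 at 959 mg/kg.

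Whether the genes still changed from one dose to the next was tested with contrasts that did not pick them, though they share arrays with those that did. None of the 4 genes passed in any of these steps. Between 0.959 and 9.59 mg/kg Cndp2 differed by 0.22 (95% interval 0.07 to 0.37, unadjusted p 0.00549, adjusted p = 0.464 in limma). The same step was 0.05 for Mmgt1 (adjusted p = 0.916), 0.05 for Stbd1 (0.942) and 0.15 for Prnp (0.877), and single arrays left out moved each of the 3 by over 1.5 times, with none passing. Over all probe sets limma called 0.00322%, which is 1 probe set, and left 2366 with an unadjusted p under 0.05, while the fit without moderation called 3.

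From 9.59 to 95.9 mg/kg Prnp differed by 0.29 (95% interval -0.03 to 0.60, adjusted p = 0.798 in limma). Mmgt1 differed by 0.04 (adjusted p = 0.976), Cndp2 by 0.01 (0.997) and Stbd1 by -0.10 (0.923). limma called 0.00322% of probe sets in this step, which was Cyp1a1, left 2041 with an unadjusted p under 0.05, and called the same number without moderation. From 95.9 to 959 mg/kg Prnp did not pass, with a difference of -0.34 (95% interval -0.65 to -0.03, unadjusted p 0.0338, adjusted p = 0.977). The other differences were 0.03 for Mmgt1, 0.05 for Cndp2 and 0.08 for Stbd1, with adjusted p-values from 0.983 to 0.991. limma called 0.00644% of probe sets here, namely Cyp1a1 and Cyp1a2, of 1483 with an unadjusted p under 0.05, and 2 without moderation.

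Across the whole span from 0.959 to 959 mg/kg Cndp2 differed by 0.27 (95% interval 0.12 to 0.42, unadjusted p 0.000811, adjusted p = 0.924 in limma). This is a 1.21-fold level, and the interval lies above 0 although the gene did not pass over all probe sets. Mmgt1 differed by 0.12 (95% interval -0.03 to 0.27, adjusted p = 0.942), Stbd1 by 0.03 (-0.15 to 0.22, adjusted p = 0.985) and Prnp by 0.10 (-0.22 to 0.41, adjusted p = 0.968). limma called 0.00644% of probe sets, again Cyp1a1 and Cyp1a2, left 1630 with an unadjusted p under 0.05, and called 4 without moderation. Over the same span Cyp1a1 differed by 4.73 (limma, adjusted p = 3.35e-17), and the difference of Cyp3a23-3a1 was 0.23 (0.924).

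At 0.1 mg/kg all 4 genes had a mean above vehicle and none passed. The dose did not serve to pick the genes, but the 6 vehicle arrays did, so the common sign is no independent support. Mmgt1 differed by 0.16 (95% interval 0.02 to 0.31, unadjusted p 0.0316), Cndp2 by 0.14 (-0.01 to 0.29, p 0.0623), Stbd1 by 0.15 (-0.03 to 0.34, p 0.106) and Prnp by 0.20 (-0.12 to 0.51, p 0.214), each with an adjusted p of 1.00 in limma. The dimmer Mmgt1 probe set differed by 0.23 (unadjusted p 0.0194, adjusted p = 1.00). The number of arrays above every vehicle array was 0 for Mmgt1, 2 for Cndp2, 4 for Stbd1 and 1 for Prnp. Of all probe sets, 53.2% had a positive difference at this dose, and limma left 1175 with an unadjusted p under 0.05 but called 0, as did the fit without moderation.

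Single arrays weighed on these small differences. Replicate 6 of 0.1 mg/kg, the array that stood apart, had the lowest Stbd1 level of its group (9.58) and the highest Cndp2 level (9.35). Without it the difference was 0.22 for Stbd1, 0.09 for Cndp2, 0.16 for Mmgt1 and 0.22 for Prnp. Without vehicle replicate 2, the lowest vehicle array of Stbd1, Stbd1 differed by 0.10. Vehicle replicate 1 had the highest vehicle level of Mmgt1 (10.03), Cndp2 (9.12) and Prnp (7.18), and without it the differences were 0.23 for Mmgt1, 0.18 for Cndp2 and 0.29 for Prnp. Without replicate 1 of 0.1 mg/kg, which had the highest Prnp level there (7.33), Prnp differed by 0.11. The adjusted p-values then ran from 0.999 to 1.00.

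The genes whose profile over the 36 arrays was most like that of Mmgt1, by Pearson's r of log2 levels, were Cyp2c6v1 (r 0.878), Cndp2 (0.876), Cyp3a23-3a1 (0.874), Tex2 (0.867) and Cyb5a (0.863). Cyp2c6v1 is a cytochrome P450 gene, Tex2 encodes an endoplasmic reticulum protein and Cyb5a encodes cytochrome b5, an electron donor to P450 enzymes. For Cndp2 they were Cyb5a (0.889), Mmgt1 (0.876), the carboxylesterase gene Ces2c (0.844), Cyp3a23-3a1 (0.843) and Cyp2c6v1 (0.831). For Stbd1 they were the glucuronosyltransferase gene Ugt2b1 (0.811), Mmgt1 (0.792), the glutathione transferase gene Gsta4 (0.780), Cyp2c6v1 (0.767) and the efflux pump gene Abcc3 (0.765). All of these arrays share the dose groups, so genes that differ by dose resemble each other here.

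The genes most like Prnp were of another kind. They were Lhfpl6 (r 0.866), Pcolce (0.864), Col3a1 (0.862), Smoc2 (0.862) and S100a6 (0.860), among them a collagen gene, Col3a1, and Pcolce, whose product enhances collagen processing. At 95.9 mg/kg their differences from vehicle were 0.46, 0.30, 0.40, 0.78 and 0.91, and at 959 mg/kg 0.14, 0.19, 0.07, 0.20 and 0.52, with adjusted p-values from 0.828 to 0.976 at 959 mg/kg. Ranked by likeness to Mmgt1 among 14216 genes, Cndp2 was at 2, Stbd1 at 11 and Prnp at 98, an order that the choice of genes by a shared rise bears on. As deviations from the dose group means the ranks were 348, 1748 and 613.

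Within dose groups, where the dose is removed, the nearest genes were others for all but Prnp. As deviations from the group means, Mmgt1 was most like Tbl2 (r 0.706), Hacd3 (0.701) and Abce1 (0.687), and Stbd1 most like Ehmt1 (0.774), Aatf (0.665) and Bag3 (0.653). Cndp2 was most like Eng (0.732), an endothelial receptor gene, and Ifi35 (0.722) and Ube2l6 (0.720), both interferon-induced. With the mean of 7 measured endothelium markers, which include Eng, Cndp2 had an r of only 0.0412 within dose groups. Prnp was most like Col3a1 (0.849), Pcolce (0.845) and Smoc2 (0.831), which were also on its list over all arrays, where Lhfpl6 came first.

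Whether the 4 genes varied together from array to array inside a dose group was also asked. Of 10 relations tested by permutation within groups (n = 36 arrays), 0 passed after adjustment. The closest was Mmgt1 with Cndp2, at Pearson's r 0.445 (permutation p 0.006, adjusted p = 0.060) and Spearman's rho 0.446 (adjusted p = 0.0918). Without the 2 arrays farthest out on Mmgt1, vehicle replicate 1 and 9.59 mg/kg replicate 2, r was 0.336, and with each array's median removed over all 36 arrays it was 0.498 (permutation adjusted p = 0.019). Mmgt1 with Prnp had r 0.393 and rho 0.320 (permutation p 0.0344, adjusted p = 0.172; without those 2 arrays r 0.334). Mmgt1 with Stbd1 had r 0.277 and rho 0.248 (permutation, adjusted p = 0.322 and 0.388), and Cndp2 with Prnp r 0.157 and rho 0.160 (0.559 and 0.631). Cndp2 with Stbd1 had r 0.0336 and rho 0.0672, and Stbd1 with Prnp r -0.0395 and rho -0.0903 (permutation, adjusted p from 0.673 to 0.854). Without the 2 arrays farthest out on Cndp2, 959 mg/kg replicate 1 and 0.1 mg/kg replicate 6, Cndp2 with Stbd1 had r 0.243. With Cyp3a23-3a1 the r was 0.280 for Mmgt1, 0.187 for Stbd1, 0.177 for Prnp and 0.0998 for Cndp2 and rho from 0.108 to 0.338 (permutation, adjusted p from 0.290 to 0.767). Leaving out the 2 farthest arrays in the same way gave r 0.480 for Mmgt1 (permutation p 0.0138, not adjusted), 0.337 for Stbd1, 0.198 for Cndp2 and 0.115 for Prnp.

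Prnp also differed in level and spread. Its mean log2 level was at the 73.6th percentile of all probe sets, against 95.3 for Mmgt1 and Stbd1 and 92.2 for Cndp2. These are ranks of probe set signals, which are not levels per transcript. The SD within dose groups was 0.284 for Prnp, at the 95.1st percentile of all probe sets, and 0.163 for Stbd1, 0.128 for Cndp2 and 0.127 for Mmgt1, with a median over all of 0.141. Among probe sets within 0.5 of their own level, the SD was at the 91.8th percentile for Prnp, 80.3 for Stbd1, 66.9 for Mmgt1 and 64.4 for Cndp2.

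Markers of other liver cells were followed beside these genes. In whole tissue, more cells of a type and more RNA per cell cannot be told apart. The mean log2 level of the 14 measured markers of stellate cells and fibroblasts, the cells that make collagen, was 7.19 in vehicle (range over arrays 6.96 to 7.41), 7.19 at 0.1 mg/kg (7.00 to 7.53) and 7.24 at 0.959 mg/kg (6.93 to 7.50). It was 7.37 at 9.59 mg/kg (7.11 to 7.60), 7.56 at 95.9 mg/kg (7.33 to 7.81) and 7.32 at 959 mg/kg (7.03 to 7.96). All 14 had a higher mean at 95.9 mg/kg than in vehicle, with a median difference of 0.352, where 48.3% of all probe sets were higher. limma called 0 of the 14 at any dose, against 0.0902% of all probe sets at 95.9 mg/kg. Col3a1, named above, is 1 of the 14. None of the 14 lay below the median level of all probe sets.

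Within dose groups Prnp moved with that marker mean (r 0.836 over 36 arrays, a description, from arrays that share their whole RNA sample), while r was 0.154 for Mmgt1, 0.049 for Stbd1 and 0.032 for Cndp2. Without 959 mg/kg replicate 5, where the marker mean was 7.96 and Prnp 7.59, r for Prnp was 0.819, and the difference of Prnp at 959 mg/kg was 0.28 in place of 0.39. Prnp minus the marker mean of the same array exceeded vehicle by 0.19 at 0.1 mg/kg, 0.25 at 0.959 mg/kg, 0.26 at 9.59 mg/kg, 0.35 at 95.9 mg/kg and 0.26 at 959 mg/kg. The peak of Prnp at 95.9 mg/kg, 0.73 in its own level, was thus 0.35 against these markers. This measure was chosen after the data were seen, and the part of these cells in the level of Prnp was not tested.

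**Figure D3:**
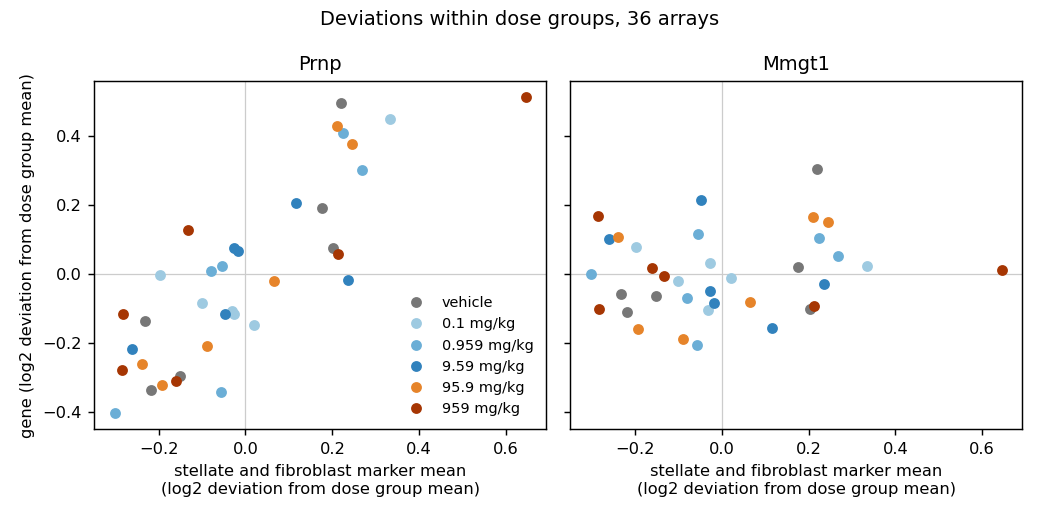
Deviation of Prnp (left) and Mmgt1 (right) from the dose group mean against the deviation of the mean of 14 stellate cell and fibroblast markers, both on the log2 scale, with 1 point per array and colours for dose groups. Prnp rises along the marker mean (r 0.836) and Mmgt1 does not line up with it (r 0.154).

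Other marker lists went less closely with Prnp. Its r within groups was 0.401 with the cholangiocyte mean (5 markers, 2 below the median level), 0.101 with endothelium (7), -0.147 with Kupffer cells and macrophages (7), -0.207 with lymphocytes (6, of which 5 below the median level) and -0.060 with nerve and glia (5, of which 4 below the median level). The cholangiocyte mean was 5.35 in vehicle (5.12 to 5.72), 5.42 at 0.1 mg/kg, 5.38 at 0.959 mg/kg, 5.40 at 9.59 mg/kg, 5.58 at 95.9 mg/kg (5.47 to 5.74) and 5.66 at 959 mg/kg (5.27 to 6.12). All 5 of its markers were higher at 95.9 mg/kg than in vehicle, and limma called 0 of them at any dose. Their part in the level of Prnp was not tested. Stbd1 had r 0.428 with the nerve and glia mean, which ran from 4.43 to 4.61 over the groups. It also had r -0.359 with the lymphocyte mean and -0.322 with the hepatocyte mean. The part of these cells in the level of Stbd1 was not tested. Cndp2 had r 0.554 with the Kupffer cell and macrophage mean, and 0.502 without 0.1 mg/kg replicate 6. That mean was 8.70 in vehicle (7.98 to 9.02), 8.27 at 0.1 mg/kg (7.64 to 8.82), 8.24 at 0.959 mg/kg (7.88 to 8.53), 8.40 at 9.59 mg/kg (8.04 to 8.68), 8.55 at 95.9 mg/kg (7.70 to 9.05) and 8.52 at 959 mg/kg (8.06 to 8.83), so it was below vehicle in every dose group, in each of which Cndp2 was above vehicle. The part of these cells in the level of Cndp2 was not tested.

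None of the measured pathway partners of the 4 genes passed the test. Of 122 genes on 4 pathway lists, 106 were measured, and limma called 0 of them at any dose against vehicle, as did the fit without moderation. Of all probe sets limma called 0% to 0.116% per dose, so 0 of 106 genes lies near that share. The list of Mmgt1 holds the EMC subunits, other protein insertion factors and magnesium transporters. Its 29 measured genes, 9 of them EMC subunits, had median differences of 0.03, 0.03, 0.06, 0.04 and 0.02 from the lowest to the highest dose, against medians over all probe sets within 0.01 of 0. Of the 29 genes, 19, 22, 22, 22 and 21 were above vehicle, and 3, 1, 6, 2 and 0 had an unadjusted p under 0.05. Over all probe sets, 53.2%, 52.0%, 50.1%, 48.3% and 49.5% were above vehicle at these doses and 3.79%, 6.06%, 8.61%, 7.01% and 6.08% had such a p, and the counts of all 4 lists are to be read against these shares. Sec61b, a subunit of the translocon, differed by 0.07 at 959 mg/kg (adjusted p = 0.849) and Nipal2, a magnesium transporter-like gene, by 0.21 (adjusted p = 0.848).

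The list of Cndp2 covers dipeptide and glutathione breakdown and the supply of glutathione. Of its 25 measured genes, 15, 11, 13, 12 and 13 were above vehicle from the lowest to the highest dose, and 2, 4, 1, 2 and 3 had an unadjusted p under 0.05. Gsr, glutathione reductase, had differences of 0.09, 0.25, 0.30, 0.34 and 0.37 over the 5 doses and did not pass at the last (SE 0.0914, adjusted p = 0.151). Cth, which makes cysteine, differed by -0.13 at 959 mg/kg (adjusted p = 0.770). Chac1, which breaks down glutathione, was named after its values were seen, as the list's largest difference at every dose. It differed by -0.98, -1.09, -0.77, -1.11 and -0.92 (SE 0.440) with an unadjusted p from 0.016 to 0.088, and passed at none (adjusted p from 0.565 to 1.00). Cndp1, the sister dipeptidase and direct neighbour of Cndp2, had a log2 level of 5.17 and differed by -0.01 at 959 mg/kg.

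The list of Stbd1 holds genes of glycogen synthesis, breakdown and autophagy. Of its 24 measured genes, 14, 11, 12, 14 and 12 were above vehicle, and 0, 1, 1, 2 and 2 had an unadjusted p under 0.05. Gabarapl1, an autophagy gene whose product binds the Stbd1 protein, had differences of -0.05, 0.03, 0.17, 0.19 and 0.34 over the doses and did not pass at the last (adjusted p = 0.282). Slc2a2, the main glucose transporter of hepatocytes, differed by -0.19 at 959 mg/kg (adjusted p = 0.803).

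The list of Prnp covers its gene family, enzymes that cut it, binding partners and copper handling. Of its 28 measured genes, 13, 11, 15, 14 and 14 were above vehicle, and 2, 0, 2, 1 and 3 had an unadjusted p under 0.05. Slc31a1, the copper uptake transporter, differed by 0.14 at 959 mg/kg (adjusted p = 0.581) and Adam8, a membrane protease, by 0.21 (adjusted p = 0.748). Cav1, of the same list, was named after its values were seen, as the list's largest difference at 95.9 mg/kg. It differed by 0.78 there (SE 0.264, unadjusted p 0.00583, adjusted p = 0.451 in limma) and by 0.42 at 959 mg/kg (adjusted p = 0.875). The lowest difference of the list was -0.13 at 95.9 mg/kg and -0.81 at 959 mg/kg. Prnd, the sister gene next to Prnp, had a log2 level of 3.11 and differed by 0.06 at 959 mg/kg.

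**Figure D4:**
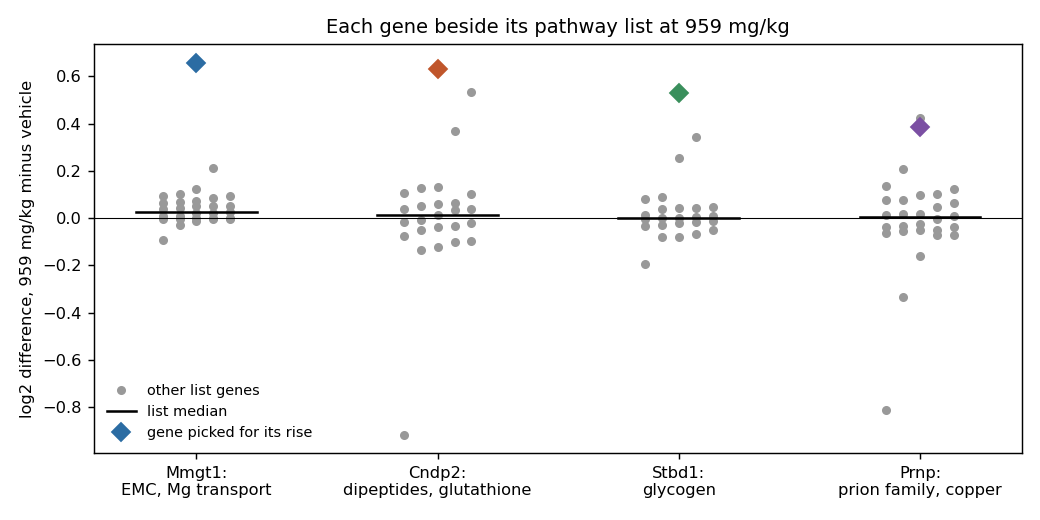
Log2 difference between 959 mg/kg and vehicle for each measured gene of 4 pathway lists (grey points, spread sideways for sight only), with the list median (bar) and the gene each list was built around (diamond). The medians lie near 0, and limma called 0 of the 106 list genes, against 0.11% of all probe sets at this dose. The diamonds stand at 0.66, 0.63, 0.53 and 0.39, and those genes were picked for their rise.

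Genes beside the 4 on the chromosome were also read, the nearest pair with a measured probe set on each side in the RefSeq gene order of GRCr8. Of these 16 neighbours 1 was called, Cyb5a, which lies near Cndp2 with 2 annotated protein-coding genes between them. Its difference from vehicle was 0.03 at 0.1 mg/kg, 0.12 at 0.959 mg/kg, 0.17 at 9.59 mg/kg (adjusted p = 0.0211), 0.22 at 95.9 mg/kg (0.000475) and 0.24 at 959 mg/kg (5.31e-05, all limma), with an SE of 0.0336. Cyb5a also had the profile most like Cndp2 over all 36 arrays, where dose is shared, but was not among the 3 most alike genes within dose groups. Next to Mmgt1, Fhl1 had a difference of 0.36 at 95.9 mg/kg (adjusted p = 0.451). Of the 80 neighbour tests, 9 had an unadjusted p under 0.05, against 3.79% to 8.61% of all probe sets at the 5 doses, and between 0% and 0.116% of all were called. Those 9 came from Cyb5a, Fhl1, Zfp407 and Dipk1c alone. The 5 tests of a gene share its vehicle arrays, so they are not separate.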

How the data were processed

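The deposited values are log2 RMA signals per probe set that the authors made with the affy package, per the submitters' processing notes, which give no versions. RMA corrects background, normalizes by quantiles and so forces like distributions on all arrays. Of 31099 probe sets, 57 controls were left out and 31042 tested. The annotation gave 1 symbol to 20826, several to 436 and none to 9780. Genes with several probe sets were read by the brightest.

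Groups came from sample titles. limma 3.58.1 (R 4.3.3) fitted 1 mean per group over 36 arrays (30 residual and 5.12 prior degrees of freedom), with Benjamini-Hochberg adjustment over all probe sets and a threshold of 0.05. The series' design text names R/maanova, which limma replaces. The members and lists were chosen with earlier results of these data known. Relations used 100000 permutations within groups and adjustment over 10. The fit was tested on simulated data.

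Named were all member probe sets, the 5 and 3 most alike genes, reference P450 and transporter genes, list genes called or else the 2 of smallest p at the top dose, and measured neighbours. Chac1 and Cav1 were added after their values were seen. Same-numbered arrays did not deviate together on average (mean r -0.0221 over 90 pairs, from -0.239 to 0.375), so numbers were not taken to pair arrays. A mean near 0 cannot exclude that some arrays share a batch by number.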

Additional observations from a re-analysis of the deposited data

Results flagged for a closer look

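In 2 of 30 groups of 6 arrays (5 probe sets in 6 dose groups) 1 array stood far from the rest by Dixon's test, where chance gives about 1 in 20 groups. Mmgt1 (brighter probe set) was at 10.03 on vehicle replicate 1, while the other vehicle arrays ran from 9.62 to 9.75, and the gap was 0.687 of the whole range. Prnp was at 7.33 on replicate 1 of 0.1 mg/kg, while the others ran from 6.74 to 6.88, and the gap was 0.758 of the range. Neither array's part in the group means was tested beyond the values without it given above.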

How the results depend on the processing

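Alternatives were another quantile normalization, array medians removed, only brighter probe sets, only the brightest per gene, a fit with robust estimation and an intensity trend, one without variance moderation, array weights, the replicate block, only the compared groups, and each array left out. The 0.1 mg/kg and step contrasts of the 4 genes kept their direction and stayed short of the threshold in 409 of 420 runs, with a lowest adjusted p of 0.319. The other 11 changed sign near 0. With array medians removed the Cndp2 step from 9.59 to 95.9 mg/kg was -0.000249. Leaving out single arrays moved that step between -0.0356 and 0.0394, Mmgt1 from 95.9 to 959 mg/kg between -0.0094 and 0.0608, Stbd1 from 0.959 to 959 mg/kg between -0.0065 and 0.0795, and Prnp over the same span between -0.0077 and 0.177. From 0.959 to 9.59 mg/kg the leave-out ranges were 0.0115 to 0.0854 for Mmgt1, 0.00781 to 0.0996 for Stbd1 and 0.0689 to 0.231 for Prnp. The upper-dose differences were run only with another quantile normalization, array medians removed, single arrays left out and the dimmer Mmgt1 probe set. In all 228 of these runs the difference kept its direction and moved by less than the SD of the gene's vehicle arrays. That SD is a wide margin for Prnp (0.318). All 140 list counts stayed at 0. They were not run with arrays left out, only the compared groups or only the brightest probe set per gene. Against the stellate markers, a measure added after the data were seen, Prnp at 95.9 mg/kg moved to 0.353.

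Mmgt1 with Cndp2 within dose groups passed with array medians removed (r 0.498, permutation adjusted p = 0.0190) and with the replicate block (r 0.515, adjusted p = 0.0220). It also passed without vehicle replicate 2, 0.959 mg/kg replicate 4, 9.59 mg/kg replicate 4, 95.9 mg/kg replicate 3 or 5, or 959 mg/kg replicate 1, with r from 0.382 to 0.539 over all arrays left out. Mmgt1 with Prnp passed under the replicate block alone (r 0.451, adjusted p = 0.0490). Stbd1 with Prnp changed sign under the replicate block (r 0.0328) and ran from -0.099 to 0.0144 with arrays left out, and Cndp2 with Stbd1 from -0.0681 to 0.248. The cause was not tested. The replicate block changed no other call of the 4 genes or lists. Of 36 arrays, 6 had as best match in another group an array of their own number, which is 1 of the 6 arrays in each group. Over all probe sets, calls at 0.959 mg/kg were 9, but 5 with only the brightest probe sets and 1 with only the compared groups. With only those groups, calls were 19 against 36 at 9.59 mg/kg, 16 against 28 at 95.9 mg/kg and 13 against 34 at 959 mg/kg. Between doses the counts stayed from 0 to 4.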
